A study of Mus musculus with 9 samples.

Results

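The 10 genes described here encode the core machinery that makes microRNAs and loads them into effector complexes: Dgcr8 and Drosha, Xpo5, Dicer1, its partners Tarbp2 and Prkra, and the Argonautes Ago1, Ago2, Ago3 and Ago4. They were chosen by name, with earlier results of these data known. All 10 were found among the 19938 genes with a probe set annotated to 1 gene. They were read through 12 of the 35557 probe sets on the array. Their RNA was measured with 9 arrays in mouse eggs arrested at metaphase II. The eggs were labelled Dicer knockout, Dgcr8 knockout or wild-type, with 3 arrays per genotype. The arrays were all labelled C57BL/6 and given as separate biological replicates. All females were primed with 7.5 IU of pregnant mare serum gonadotropin and 7.5 IU of human chorionic gonadotropin, the eggs were taken 16 h later by the source labels, and cumulus cells were removed with hyaluronidase. The sources used here do not give the alleles, how the genes were deleted, or the number of eggs and females behind an array. The comparisons ask how much RNA each step of the pathway has in the wild-type egg, and whether the RNA of the other steps differs once Dgcr8 or Dicer is lost.

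MicroRNAs are made in steps. In the nucleus, Drosha, an RNase III enzyme, and its RNA-binding partner Dgcr8 cut a hairpin out of the primary transcript, and Xpo5, an exportin that works with the GTPase Ran, carries the hairpin to the cytoplasm. There Dicer, encoded by Dicer1, cuts the hairpin to a short duplex with the double-stranded RNA-binding proteins encoded by Tarbp2 and Prkra, and 1 strand is loaded into an Argonaute protein. Dicer also cuts long double-stranded RNA into endogenous siRNAs, which mouse oocytes hold in quantity and which need no Dgcr8. Ago2 is the Argonaute best known for cutting its target RNA.

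The pathway is known for feedback on itself. Drosha and Dgcr8 can cut hairpins in the Dgcr8 transcript, and let-7, miR-103 and miR-107 have been reported to repress Dicer1 in other cells. The sequences of let-7a, miR-103 and miR-107 are shown because the values of Dicer1 below bear on their reported target, and those of miR-1306 and miR-3618 because they mark the hairpins in the Dgcr8 transcript. The small RNAs themselves were not measured on these arrays. They come from RefSeq (GRCm38.p6), are written 5′ to 3′, and have the seed, bases 2 to 8, in capitals. The 4 arms of miR-1306 and miR-3618 lie within the Dgcr8 gene, on the minus strand, with miR-1306 at chr16:18284288-18284310 (5p) and chr16:18284248-18284268 (3p) and miR-3618 at chr16:18284602-18284623 (5p) and chr16:18284562-18284583 (3p). Of the regulators of Dicer1, let-7a-5p of the Mirlet7a-1 locus lies at chr13:48538239-48538260 on the minus strand. MiR-107-3p lies at chr19:34820700-34820722 on the minus strand, and miR-103-3p is made from 2 loci, including chr11:35782447-35782469 on the plus strand. MiR-103 and miR-107 share their seed.
let-7a-5p: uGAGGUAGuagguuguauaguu
miR-103-3p: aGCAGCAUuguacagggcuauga
miR-107-3p: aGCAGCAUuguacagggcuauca
miR-1306-5p: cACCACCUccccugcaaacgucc
miR-1306-3p: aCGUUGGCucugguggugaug
miR-3618-5p: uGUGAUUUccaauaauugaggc
miR-3618-3p: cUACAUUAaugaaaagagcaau

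Values are log2 signals with 1 value per probe set and array, and the array medians lay between 5.48 and 5.58. Genes were tested where the signal reached 4 in at least 3 of the 9 arrays, which all 10 members did, as 10 of 17324 genes. The arrays carried the RNA of eggs: the 20 egg markers measured, such as Zp3 and Gdf9, had median signals of 11.3 to 11.7 in the 9 arrays, against 4.91 to 5.07 for 17 cumulus and granulosa markers, 5.16 to 5.46 for 14 oviduct markers and 4.48 to 4.90 for 12 immune and blood markers. On the log2 scale the summed signal of the cumulus markers was 10.4 to 10.5 in wild-type, 10.4 to 10.6 in Dgcr8 knockout and 10.2 to 10.3 in Dicer knockout eggs. That of the oviduct markers was 11.7 in all wild-type arrays, 11.7 in all Dgcr8 knockout arrays and 11.5 in the Dicer knockout arrays, and that of the immune and blood markers 8.69 to 8.85, 8.80 to 8.88 and 8.88 to 9.30. Against wild-type, the Dicer knockout had 4 of 20 egg markers called higher (Zp2, Nobox, Khdc3 and Ddx4) and 1 lower (Kit). Over all genes 4.87% were called higher and 6.47% lower. Of 16 cumulus markers tested none was called. Of 13 oviduct markers tested, Myh11, at 9.75 in wild-type eggs, was called lower (-0.46). Of 10 immune and blood markers tested, Cd68 was called higher (0.96). The Dgcr8 knockout had no marker called, against 0.0231% of all genes. Muc1, Adgre1 and S100a8 were under the floor in all 9 arrays. The part of these markers in the results was not tested. If an array holds the RNA of several eggs, fewer eggs holding a transcript and less of it per egg cannot be told apart.

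In wild-type eggs every step of the pathway had at least 1 gene well above the floor of 4, but single genes of a family lay close to it. The mean wild-type signals of the 10 genes ran from 4.22 to 11.67, a span of 7.45. Part of such a span belongs to the probes: the 2 probe sets of Ago2 differed by 1.15 in wild-type eggs and those of Tarbp2 by 1.76, and over the 999 genes with several probe sets the highest 2 differed by a median of 0.64, and by 3.05 at the 90th percentile. The signals are therefore given gene by gene, and no order of RNA amounts between genes is read from them.

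**Figure D1:**
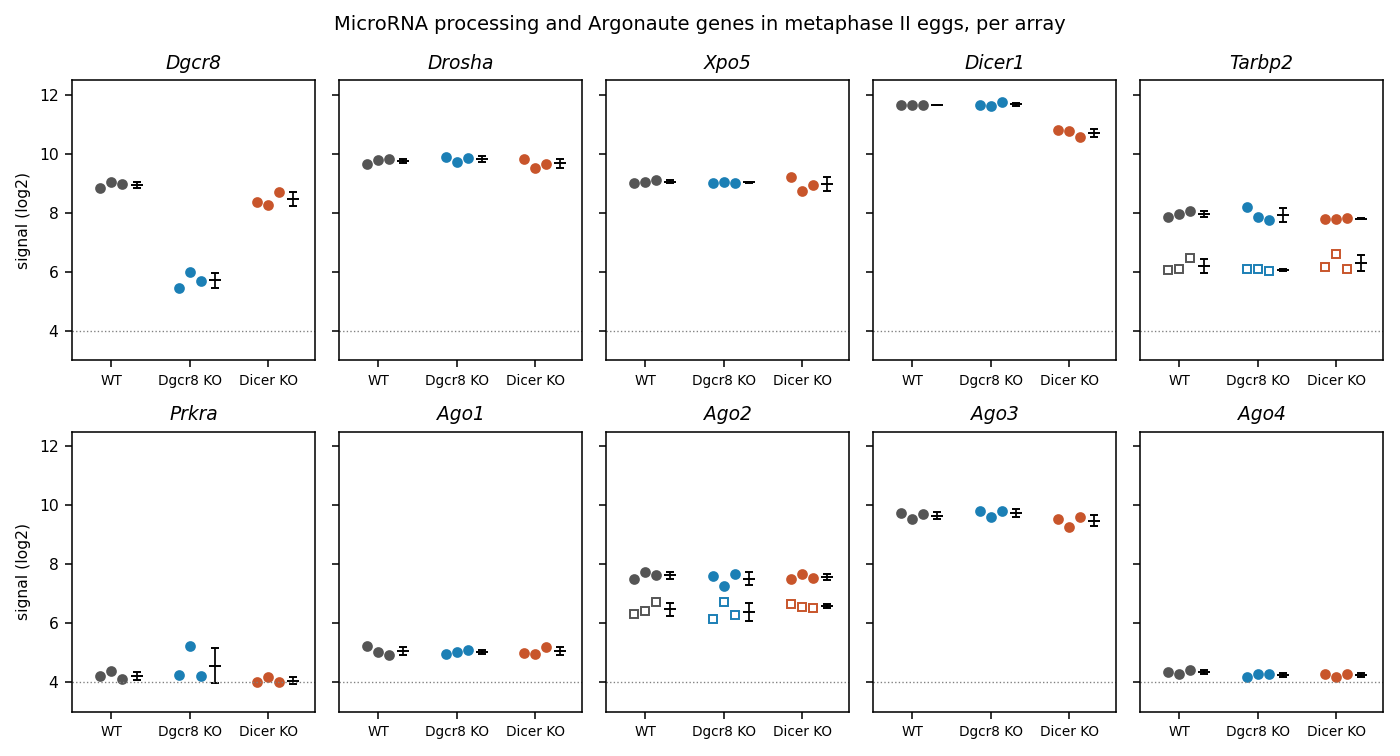
Log2 signal of the 10 genes in each array, by genotype (KO, knockout). Each filled circle is 1 array of the tested probe set, open squares are the second probe set of Tarbp2 and Ago2, black bars are the mean ± SD (n = 3), and the dotted line is the floor of 4. Dgcr8 is low in its own knockout, Dicer1 is lower in the Dicer knockout, and the other genes lie at similar heights in all 3 genotypes.

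Nuclear processing was represented by both subunits of the microprocessor. Drosha gave 9.67, 9.80 and 9.81 in the 3 wild-type arrays, and Dgcr8 gave 8.85, 9.05 and 8.97. The exportin Xpo5 gave 9.02, 9.03 and 9.11. All 3 genes were far above the floor with an SD of at most 0.10 between wild-type arrays.

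Dicer1 had the narrowest spread of the 10 genes, with 11.66, 11.67 and 11.67 in the wild-type arrays (SD 0.0061, n = 3). Of the partners of Dicer, Tarbp2 gave 7.87, 7.98 and 8.07 with the probe set tested (10427255) and 6.06, 6.09 and 6.48 with the other (10544497). Prkra gave 4.20, 4.37 and 4.10, just above the floor in every wild-type array.

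Of the 4 Argonautes, Ago3 gave 9.72, 9.52 and 9.70 in the wild-type arrays, and Ago2 gave 7.51, 7.74 and 7.62 with the probe set tested (10429329) and 6.31, 6.40 and 6.72 with the other (10429327). Ago1 gave 5.21, 5.04 and 4.92, and Ago4 gave 4.33, 4.27 and 4.40, both near the median signals of the cumulus, oviduct and blood markers. Ago3, Ago1 and Ago4 are 3 protein-coding genes in a row on mouse chromosome 4.

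For some genes the exact values limit what a small spread says. For 4 of the 10 genes, at least 2 arrays held a value equal in every deposited digit: 9.02 for Xpo5 in 3 arrays, 4.27 for Ago4 in 5, 5.04 for Ago1 in 2 and 4.20 for Prkra in 2. Over all genes tested, 50.2% held such a shared value, counted across the arrays of all genotypes and not within a genotype. Equal values fell within a genotype for Xpo5 and Ago4, where an SD can be small without that precision in the RNA. Those of Ago1 and Prkra lay in different genotypes, and Dicer1 held no shared value.

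The loss of Dgcr8 was first read from Dgcr8 itself. Its log2 signal was 5.47, 5.98 and 5.70 in the Dgcr8 knockout arrays, all below the lowest wild-type value of 8.85. It fell by 3.24 ± 0.15 (log2, SE; limma adjusted p 1.06e-05), to 10.6% of the wild-type signal (95% interval 8.36% to 13.3%). The sources used here do not tell whether the probes of Dgcr8 or Dicer1 lie in the deleted part of the gene, so this is not a measure of the intact RNA left. It was called in each of the 19 alternative settings in which its change was computed.

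No other member passed the test when Dgcr8 was lost. Called genes were 0.0231% of those tested in this comparison, 4 of 17324, so the 1 of 10 members called, Dgcr8, is the deletion and nothing is read from the count. The 9 genes not deleted had log2 differences from -0.11 (Ago2) to 0.34 (Prkra), with a median of -0.02 against -0.0029 over all genes, 4 with a positive and 5 with a negative sign. None of the 9 had an unadjusted limma p under 0.05, the smallest being 0.184. In none of the 9 were the 3 values of the 2 genotypes apart, against 6.54% of all genes.

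Dicer1, the next processing enzyme in line, was the most closely bounded. It gave 11.65, 11.63 and 11.75 in Dgcr8 knockout eggs, around the 3 wild-type values. The difference was 0.01 with a 95% interval of -0.13 to 0.15, so that its signal lay between 91.5% and 111% of wild-type. The interval gives the size of change in Dicer1 RNA that these arrays allow for. The processing of let-7a, miR-103 and miR-107, shown above, needs Dgcr8. They were not measured, and whether they act on Dicer1 in eggs was not tested. Drosha, the catalytic partner of the deleted gene, gave 9.88, 9.72 and 9.88, overlapping its wild-type values (difference 0.06, 95% interval -0.13 to 0.26). The same held for Xpo5, with 9.02, 9.05 and 9.02 (difference -0.02, 95% interval -0.27 to 0.22).

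Among the partners and effectors the intervals were wider. Tarbp2 gave 8.19, 7.85 and 7.75 in Dgcr8 knockout eggs, on both sides of its wild-type values (difference -0.04, 95% interval -0.30 to 0.22). Ago2 gave 7.60, 7.26 and 7.68, with replicate 2 below all wild-type arrays (difference -0.11, 95% interval -0.38 to 0.17), and its second probe set differed by -0.10. Ago3 gave 9.80, 9.60 and 9.81, with 2 arrays just above the highest wild-type value (difference 0.09, 95% interval -0.14 to 0.32). Ago1 and Ago4, near the floor, differed by -0.03 and -0.10.

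Prkra had the largest difference of the genes not deleted, and 1 array carried it. The 3 Dgcr8 knockout values were 4.23, 5.24 and 4.20, and replicate 2 was the highest of all 9 arrays. The difference of 0.34 (95% interval -0.19 to 0.86) became -0.0073 without that array.

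**Figure D2:**
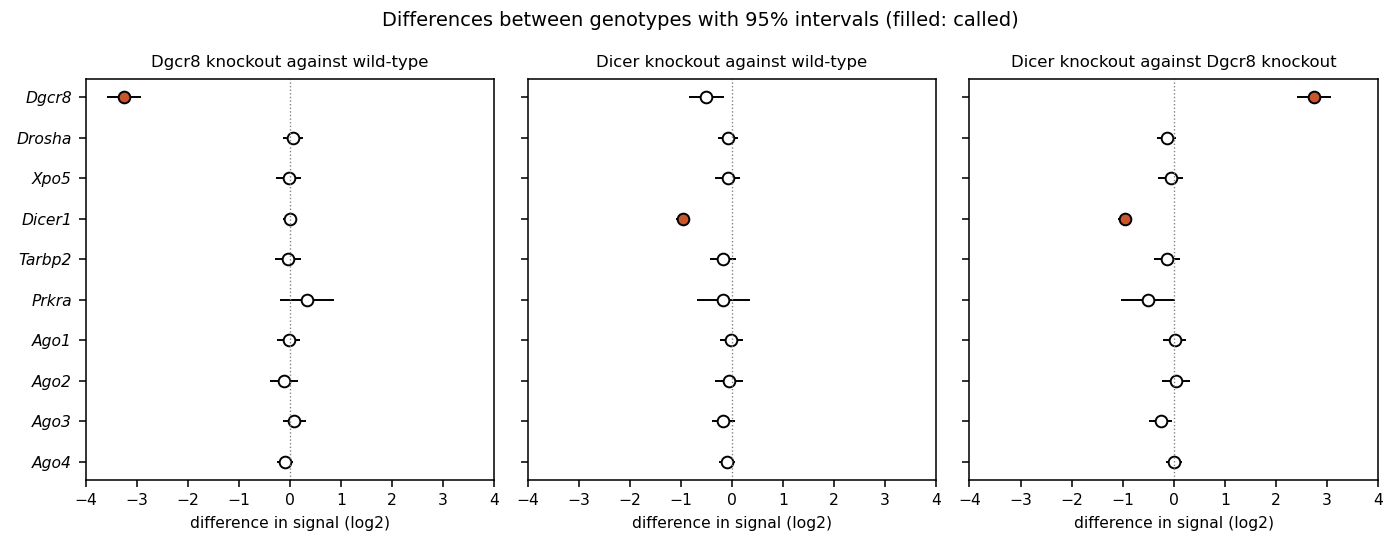
Difference in log2 signal between genotypes for the 10 genes, in 3 comparisons. Circles are the fitted differences (first genotype minus second), bars their 95% intervals from limma, and filled circles are genes called at an adjusted p under 0.05. Dgcr8 and Dicer1 are the called genes, at -3.24, -0.95, 2.74 and -0.96, and most other intervals cross 0.

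In the Dicer knockout, Dicer1 lost about as much signal as remained. The arrays gave 10.82, 10.77 and 10.57, all below the lowest wild-type value of 11.66. It fell by 0.95 ± 0.06 (log2, SE; limma adjusted p 1.01e-05), leaving 51.7% of the wild-type signal (95% interval 47.0% to 56.9%). As for Dgcr8, the remaining signal does not measure intact Dicer1 RNA. The call held in all 19 settings, although at 1.93-fold the change misses a 2-fold threshold.

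Dicer1 was 1 of 10 members called in the Dicer knockout, and called genes were 11.3% of all genes tested. Of the 9 genes not deleted none was called, with adjusted p from 0.0644 (Dgcr8) to 0.976 (Ago1), and Dgcr8 was the one with an unadjusted limma p under 0.05. All 10 members had a lower mean in Dicer knockout than in wild-type eggs, as had 57.9% of all genes. The median of the 9 genes not deleted was -0.09, against -0.03 over all genes. The signs of the smallest differences did not hold with single arrays left out: that of Xpo5 turned without Dicer knockout replicate 2, that of Ago1 without Dicer knockout replicate 1 or 2 or wild-type replicate 1, and that of Ago2 without wild-type replicate 2.

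Dgcr8 came closest to a call among the genes not deleted. Its signal was 8.37, 8.28 and 8.72 in Dicer knockout eggs, all below the lowest wild-type value of 8.85 and far above the highest Dgcr8 knockout value of 5.98, so the 3 genotypes lay in the order wild-type, Dicer knockout, Dgcr8 knockout with no overlap. The log2 difference from wild-type was -0.50 ± 0.15 (SE), or 70.8% of the wild-type signal (95% interval 56.0% to 89.4%). With an adjusted p of 0.0644 it missed the threshold. It passed without Dicer knockout replicate 3 (0.0276), with either of the first 2 Dgcr8 knockout replicates left out (0.0497 and 0.0469) and with a floor of 6 (0.0410), and in the other settings its adjusted p lay between 0.0504 and 0.185. The log2 difference itself ranged from -0.63 to -0.41 as single arrays were left out.

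The values of 3 of the 10 members did not overlap between Dicer knockout and wild-type eggs, Dicer1, Dgcr8 and Tarbp2, against 26.2% of all genes. Tarbp2 gave 7.78, 7.79 and 7.82, just under the lowest wild-type value of 7.87 (difference -0.18, 95% interval -0.44 to 0.08; limma adjusted p 0.433). Its second probe set had the opposite sign (0.08), with 6.17, 6.62 and 6.09, of which replicate 2 lay above all wild-type values. The 2 probe sets therefore give no common direction for Tarbp2.

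Drosha and Xpo5 overlapped their wild-type values. Drosha gave 9.84, 9.53 and 9.67 in Dicer knockout eggs (difference -0.08, 95% interval -0.27 to 0.11), and Xpo5 gave 9.22, 8.74 and 8.95 (difference -0.09, 95% interval -0.33 to 0.16). Xpo5 had the widest spread of the members in this genotype (SD 0.24, n = 3), reaching above and below all wild-type arrays. Dicer knockout replicate 2 held the lowest of the 3 values for 6 of the 10 genes: Dgcr8, Drosha, Xpo5, Ago1, Ago3 and Ago4. Wild-type replicate 1 also held the lowest value of its group for 6 of the 10 genes. In Dicer knockout replicate 2 the members deviated from their group means by a median of -0.08, against -0.0043 over all genes. In wild-type replicate 1 the median was -0.03, against -0.0035 over all genes.

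The Argonautes did not pass the test in the Dicer knockout either. Ago2, the slicer, gave 7.49, 7.67 and 7.53, inside the wild-type values but for 1 array (difference -0.06, 95% interval -0.33 to 0.22; limma adjusted p 0.852), and its second probe set had the opposite sign (0.10). Ago3 gave 9.55, 9.28 and 9.62, with replicate 2 below all wild-type arrays (difference -0.17, 95% interval -0.40 to 0.06; limma adjusted p 0.386). Ago1 and Ago4 differed by -0.0092 and -0.09, and Prkra by -0.17 with 95% bounds of -0.69 and 0.36. A p that misses the threshold does not show equal levels: for Ago2 the interval runs from 79.4% to 116% of the wild-type signal, and for Ago3 from 75.9% to 104%.

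The 2 knockouts were also compared directly, which tests the difference between them; the wild-type arrays, which both other comparisons share, enter only through the estimate of the spread. Dgcr8 was higher in Dicer knockout than in Dgcr8 knockout eggs by 2.74 ± 0.15 (log2, SE; limma adjusted p 4.47e-06), and Dicer1 was lower by the log2 difference of -0.96 ± 0.06 (SE; limma adjusted p 9.75e-06). These 2 of 10 members, each deleted in 1 of the genotypes, were the calls, against 13.4% of all genes. The 8 other members had a median of -0.10, against -0.02 over all genes. Ago3 had the smallest adjusted p among them (0.141), with a difference of -0.26 (95% interval -0.49 to -0.03), and Prkra the largest difference, -0.50 (95% interval -1.03 to 0.02), which was -0.16 without Dgcr8 knockout replicate 2. The values of Dgcr8, Dicer1 and Prkra did not overlap between the knockouts, 3 of 10 members against 26.1% of all genes.

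The genes whose pattern over the 9 arrays was most like that of a called member were found by Pearson correlation, given as a description of 3 groups of arrays. Genes with predicted or clone-type names were left out of this search. For Dicer1 they were Nedd4l, a ubiquitin ligase (r 0.998), Efcab3, with a calcium-binding motif (r 0.995), and the olfactory receptor gene Olfr1463 (r 0.991). Nedd4l had mean signals of 9.16 in wild-type, 9.17 in Dgcr8 knockout and 8.17 in Dicer knockout eggs, and fell by 0.99 (log2) in the Dicer knockout. Efcab3 fell by 1.08 (log2) in the same comparison. Both genes were picked for their likeness to Dicer1 over these same arrays, so their falls follow from the search and are no separate result. Among the genes searched, none came as close to Dgcr8: the highest r were 0.890 for Cep126, a centrosomal protein, 0.872 for the transcription factor Crem and 0.870 for the carboxylesterase Ces1a. Cep126 differed by -0.40 in the Dgcr8 knockout and was not called.

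The wider pathway was described with 3 lists of cofactors, 45 of 48 listed genes being measured and 44 tested. These lists too were chosen with earlier results of these data known. In the Dgcr8 knockout none of the 44 was called in the limma fit, and 1 had an unadjusted p under 0.05, as had 457 of all 17324 genes. In the Dicer knockout 5 of the 44 were called higher and 5 lower, against 4.87% and 6.47% of all genes, with a median of -0.05 beside -0.03 over all genes. By list the medians were -0.10 for microprocessor cofactors, -0.11 for export and turnover and 0.05 for RISC genes. Refitted with a floor of 6, the calls were 13 of 41 cofactors and 2196 of 10181 genes. After quantile normalization 5 cofactors were higher and 12 lower, and over all genes 822 and 1648 in place of 843 and 1121. Without single arrays the 10 calls fell to as few as 5, without wild-type replicate 3, and to 6 without wild-type replicate 1.

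Among 11 microprocessor cofactors, Srrt, which links the RNA cap to Drosha, was called higher in Dicer knockout eggs. Its signal was 9.41, 9.40 and 9.40, all above the wild-type values of 8.89, 8.79 and 8.92 (0.54 ± 0.10, SE; limma adjusted p 0.00570). Called lower were 3 genes: Srsf3, a splicing factor that aids Drosha (-0.33), the helicase Ddx17 (-0.35) and Ncbp2, the small subunit of the nuclear cap-binding complex (-0.33). Srsf3 missed the threshold with the mean of its probe sets (adjusted p 0.0898). Ddx17 missed it without wild-type replicate 1 (0.0747) or 2 (0.0891) or Dicer knockout replicate 1 (0.0647), and Ncbp2 without wild-type replicate 1 (0.117), 2 (0.0732) or 3 (0.119), Dgcr8 knockout replicate 1 (0.0565) or Dicer knockout replicate 1 (0.0899). The Ncbp2 call was also lost in 4 settings that kept all arrays, with adjusted p from 0.0509 to 0.0576, and in the fit of only the 2 groups compared (0.0760).

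Of 12 genes tested for precursor export and turnover, Ran, the GTPase that Xpo5 needs to hold its cargo, was called higher. It gave 10.05, 9.89 and 9.74 in Dicer knockout eggs and 8.87, 8.80 and 9.10 in wild-type eggs, without overlap (0.97 ± 0.13, SE; limma adjusted p 0.000899). Ran was thus higher where its exportin Xpo5 overlapped wild-type. Eri1, an exonuclease that trims small RNAs, was called lower (-0.35), a call lost without any 1 of the wild-type arrays (adjusted p 0.0671, 0.114 and 0.0688) without Dicer knockout replicate 1 (0.0779) or 2 (0.0782), and with median centring (0.0694).

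The 21 genes of RISC loading and effector steps had 3 calls higher and 1 lower in the Dicer knockout. Tsnax, a subunit of the translin nuclease that clears cut passenger strands, gave 10.54, 10.32 and 10.37, all above the wild-type values of 9.22, 9.00 and 8.84 (1.39 ± 0.13, SE; limma adjusted p 0.000106). The helicase Ddx6 of cytoplasmic RNA granules was higher by 0.76 and the RNA-binding protein gene Fmr1 by 0.55, and Snd1, which encodes a Tudor-domain nuclease, was lower (-0.36). Without wild-type replicate 3 the adjusted p was 0.0521 for Ddx6 and 0.0521 for Snd1. Fmr1 was called in 2 of the 9 fits that left out 1 array, those without wild-type replicate 2 and Dicer knockout replicate 2, and elsewhere its adjusted p reached 0.137. It was also lost with all probe sets (0.0618), median centring (0.0659), the replicate block (0.0687) and with only the 2 groups compared. Srrt, Ran and Tsnax were called in all 19 settings.

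**Figure D3:**
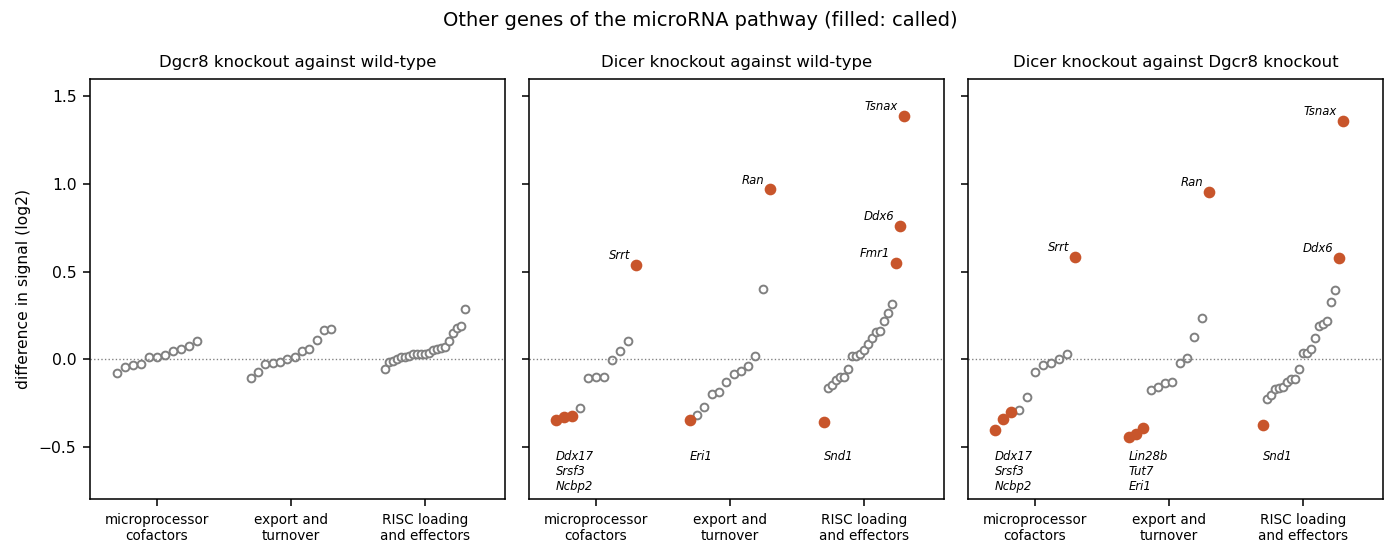
Difference in log2 signal for 44 further genes of the microRNA pathway, in 3 lists and 3 comparisons. Each point is a gene, sorted by its difference within a list, and filled points with names are genes called at an adjusted p under 0.05. No gene is called in the Dgcr8 knockout, and Tsnax (1.39) and Ran (0.97) lie highest in the Dicer knockout.

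Between the knockouts directly, Dicer knockout eggs had 4 of the 44 cofactors called higher and 7 lower than Dgcr8 knockout eggs, against 5.48% and 7.92% of all genes. After quantile normalization the split was 4 and 11, and without Dgcr8 knockout replicate 3 the 11 calls fell to 6. Tsnax (1.36), Ran (0.95), Srrt (0.58) and Ddx6 (0.58) were higher, and Ddx17, Srsf3, Ncbp2, Eri1 and Snd1 lower, as against wild-type. Added in this comparison were Lin28b, which blocks let-7 maturation (-0.45; limma adjusted p 0.0186), and Tut7, which adds uridine to precursors (-0.42; limma adjusted p 0.0140). Lin28b held 1 value, 7.81, in all 3 wild-type arrays, so its wild-type SD is 0. The Tut7 call was lost without Dgcr8 knockout replicate 3 (adjusted p 0.0530), and that of Lin28b without Dicer knockout replicate 1 (0.0634), in the fit of only the 2 groups compared (0.0588), or without either Dgcr8 knockout replicate 1 (0.0688) or replicate 3 (0.0513). The Ddx6 call was lost without any of 6 single arrays, with adjusted p up to 0.122, that of Ncbp2 without any array except Dicer knockout replicate 2 (up to 0.144), and that of Eri1 without Dgcr8 knockout replicate 3 (0.0541). Ddx6 also missed the threshold with all probe sets (0.0577), median centring (0.0653) and only the 2 groups compared (0.0540). Ncbp2 also missed it with all probe sets (0.0671), eBayes without trend and robust (0.0611), median centring (0.0591), no floor (0.0522), the replicate block (0.0653) and only the 2 groups compared (0.108).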

How the data were processed

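The authors deposited 1 log2 signal per probe set and array, made with GCRMA per the submitters' processing notes; the sources used here give neither its version nor its settings. GCRMA normalizes between arrays, so a change shared by all transcripts would not show. Probe sets with exactly 1 gene in the platform annotation were kept, each gene by its probe set of highest mean over the 9 arrays. Symbols were checked against the RefSeq gene table (GRCm38.p6), and none of the 21698 matched had to be updated. All 9 arrays were fitted together with lmFit and eBayes of limma 3.58.1, the latter with its trend and robust options (statmod 1.5.0, R 4.3.3), two-sided and without covariates, and p-values were adjusted by Benjamini-Hochberg over the 17324 genes tested. Calls are genes with an adjusted p below 0.05. The fit was first run on simulated data with independent noise, as a check of the code. That check is not used as a measure of power for the differences reported here. With 3 arrays a group, 95% half-widths of log2 differences had a median of 0.23 over all genes and lay between 0.14 and 0.52 for the members. The members, the lists of further pathway genes and the markers were chosen with earlier results of these data known. All members are named, every further pathway gene called (up to 4 per list and direction), and the 3 genes most alike each called member. The last were taken among tested genes without predicted or clone-type names. A planned comparison of protein sequences was not run, since no proteins were used here. Alternatives changed the floor, scaling, probe set, fit and threshold, and left out each array in turn.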

Additional observations from a re-analysis of the deposited data

How the results depend on the processing

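Of 561 values for single members under 19 alternative settings, 556 kept their side of the threshold, and 5 became calls: Dgcr8 in the Dicer knockout in the 4 settings given above, and Ago3 between the knockouts with a replicate block (-0.26, adjusted p 0.0324). A sign turned in 27 of the 561, never for a called value and never at a size above 0.08. Same-numbered arrays deviated together at r of -0.24 to 0.11 over all comparisons, and at 0.04 to 0.11 between Dicer knockout and wild-type. With so few arrays these values do not settle whether the replicate numbers pair the arrays. With the replicate block 3 members were called between the knockouts, 1797 genes in the Dicer knockout and 3 genes in the Dgcr8 knockout. In the Dgcr8 knockout 4 genes were called as fitted, 2 with only the 2 groups compared, and 2 to 4 without single arrays (2 without wild-type replicate 1 or any 1 Dgcr8 knockout array). In the Dicer knockout 1 member was called as fitted, 2 with a floor of 6, 2 with an adjusted p under 0.1, 0 at 2-fold or more, and 1 to 2 without single arrays. Over all genes 1964 were called there, 358 at 2-fold or more and 1238 to 1966 without single arrays, lowest without wild-type replicate 3. Of the cofactors 10 were called, 17 after quantile normalization, 1 at 2-fold or more and 5 to 11 without single arrays. Between the knockouts 2321 genes were called, 391 at 2-fold or more and 1515 to 2253 without single arrays, lowest without Dgcr8 knockout replicate 1. There 1 member (Dgcr8) and 1 cofactor passed 2-fold, and 6 to 14 cofactors were called without single arrays. The causes were not tested, beyond the stricter threshold at 2-fold and the fewer genes or arrays in a fit. Signals near the floor limit what can be said of Prkra, Ago1 and Ago4.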
